A study of Mus musculus with 4 samples.

Results

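Ddx3x, Kdm5c, Kdm6a, Eif2s3x, Pbdc1, Tmsb4x and Tmem29 are X-linked genes that were read from the inactive X of wild-type fibroblasts or, for Eif2s3x, are known to escape X inactivation. They were picked by name, on the paternal share of their RNA in wild-type cells, and make up 7 of the 22691 genes of the table. A paternal share could be measured for 6 of them, since Eif2s3x had 0 allele-specific reads in each library. The cells were embryonic fibroblasts of female mice at E13.5, from a C57BL6/J (B6) mother and a father that was an F1 of JF1 and C57BL6/J. There were 2 libraries of genotype Smchd1 +/+ (called WT) and 2 of Smchd1 MD1/MD1 (called MD1). MD1 is a mutant allele of the chromatin protein SmcHD1, which binds the inactive X. All 4 libraries also carried Xist deltaA/+, an Xist allele that cannot silence and sits on the maternal chromosome, which leaves the JF1 chromosome of the father as the inactive X. Cells with normal Xist on both chromosomes were not analysed here. The labels name no treatment, and do not say whether the 2 libraries of a genotype came from separate fetuses, so the spread between them may be technical.

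In female mammals most genes of one X chromosome are shut off under the Xist RNA. Some genes escape and are transcribed from both X chromosomes, usually at a lower rate from the inactive one. Several of these are dosage-sensitive regulators with a partner gene on the Y chromosome, as is known for Ddx3x, Kdm5c, Kdm6a and Eif2s3x. SmcHD1 helps to keep other X-linked genes silent once inactivation has taken place.

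Smchd1 RNA checked the labels, at 14.7 FPKM (fragments scaled by transcript length and library size) in WT and 1.94 in MD1, while Xist had 22.04 and 26.9. Xist came from the paternal allele at 99.8% to 99.9% in the 4 libraries. Each library held 521768 to 806626 reads of X-linked genes that could be assigned to an allele. Leaving out Xist, an X-linked gene was called informative when it had a share in all 4 libraries and averaged 20 or more allele-specific reads, which held for 391 genes. The 8 fibroblast markers were present at 4.79 to 2802.3 FPKM and summed to 5984.8 in WT and 5514.6 in MD1. They went both ways, with 5 higher in MD1, such as Fn1 (370.2 and 940.4), and 3 lower, such as Col1a1 (1688.4 and 1080.8). The 4 skeletal muscle markers were lower in MD1, with a summed 119.0 FPKM in WT and 35.1 in MD1. The 4 neural ones summed to 33.6 and 59.3 but also went both ways. Stmn2 (9.62 and 24.8) and Tubb3 (16.4 and 31.6) were higher in MD1, and Map2 (6.44 and 2.05) and Sox2 (1.09 and 0.841) lower. The endothelial sums were 7.503 and 4.87 and the epithelial ones 19.95 and 24.8, and both lists went both ways. Emcn (4.12 and 1.58) and Kdr (3.26 and 3.02) were lower in MD1, and Pecam1 and Cdh5 higher. Krt18 (17.1 and 22.1) was higher, and Krt8 (2.57 and 2.41), Epcam and Cdh1 lower. The blood cell markers summed to 9.38 and 5.23, and each was lower in MD1. No marker was listed at 0, and the endothelial Pecam1 and Cdh5 and the epithelial Epcam and Cdh1 stayed at or below 0.182 FPKM. The part of other cells in the results on total RNA was not tested, and in bulk RNA fewer cells of a type and less RNA per cell cannot be told apart.

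Promoter sequences are shown for the escape genes whose upstream window shared no 20-base stretch with an annotated transcript. They are the 250 bases before the start of Kdm6a, which had the highest WT share among the genes, and of Pbdc1 and Tmem29, which were among the lowest in MD1. Sequences are from RefSeq, build GRCm38.p6, each 5′ to 3′ on the gene's own strand. Capitals mark a GC box (GGGCGG or its reverse complement) or an NF-Y box (CCAAT or its reverse complement), which do not overlap here.
Kdm6a (chrX:18162325-18162574, plus strand): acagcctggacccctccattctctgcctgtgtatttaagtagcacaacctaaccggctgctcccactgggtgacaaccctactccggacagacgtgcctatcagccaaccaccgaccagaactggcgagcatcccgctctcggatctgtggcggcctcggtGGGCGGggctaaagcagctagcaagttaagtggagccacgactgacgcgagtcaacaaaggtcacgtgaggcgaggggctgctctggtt
Pbdc1 (chrX:105079506-105079755, plus strand): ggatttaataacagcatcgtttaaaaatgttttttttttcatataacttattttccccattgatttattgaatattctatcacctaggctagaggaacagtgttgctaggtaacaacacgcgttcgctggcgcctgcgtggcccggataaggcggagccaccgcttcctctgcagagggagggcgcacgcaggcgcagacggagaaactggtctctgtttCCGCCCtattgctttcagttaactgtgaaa
Tmem29 (chrX:150459151-150459400, minus strand): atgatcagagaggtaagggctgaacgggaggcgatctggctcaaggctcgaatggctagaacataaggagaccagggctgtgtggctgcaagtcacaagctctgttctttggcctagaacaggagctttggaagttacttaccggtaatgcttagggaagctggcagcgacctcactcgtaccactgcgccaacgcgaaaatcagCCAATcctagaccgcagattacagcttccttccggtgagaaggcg
At the first listed start, the windows hold 22 CG pairs in Ddx3x, 19 in Eif2s3x, 15 in Kdm6a and in Tmsb4x, 14 in Pbdc1, 12 in Tmem29 and 10 in Kdm5c. The further listed starts of Tmem29 have 8, 6 and 7. The median was 6 over 27025 promoters of the same length. A GC box was found in the windows of Ddx3x, Kdm6a, Eif2s3x, Pbdc1 and Tmsb4x, and in 32.9% of all promoters and 30.8% of X-linked ones. Kdm5c and the first listed start of Tmem29 had a CCAAT instead, which 34.5% of all promoters and 43.0% of X-linked ones hold. Listed starts 3 and 4 of Tmem29 hold both motifs. GCCATNTT (the YY1 core), CCGGAAGT (ETS) and the NRF1 motif, searched on both strands, did not occur in the window of any of the 7 genes at its first listed start, and occurred in 3.93%, 2.93% and 3.86% of all promoters. A match is a description of letters only.

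The RNA helicase gene Ddx3x and the histone demethylase genes Kdm5c and Kdm6a had the higher paternal shares in both genotypes, and Tmsb4x, Tmem29 and Pbdc1 the lower ones. In MD1 the 3 genes of the first set lay between 37.0% and 44.3% in single libraries, and the 3 of the second between 20.4% and 24.8%. The sets were formed on these shares, so the gap between them is a description. In each of the 6 genes the lower MD1 library exceeded the higher WT library, as in 77.5% of informative genes. The rise was 6.60 to 18.6 percentage points, with a median of 9.30, and the median over the other 385 informative genes was 11.6. The WT shares chose the genes, so they are given as a description.

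Ddx3x (X, 12858148 to 12871109, mm9) encodes a DEAD-box RNA helicase that acts in translation initiation. Its JF1 reads numbered 1151 of 4601 (25.02%) and 1386 of 5683 (24.4%) in the WT libraries, and 2567 of 6059 (42.4%) and 4379 of 9890 (44.3%) in the MD1 libraries. The MD1 libraries were well above the WT ones, and the mean share was 24.7% ± 0.444 in WT and 43.3% ± 1.35 in MD1 (SD, n = 2). This rise of 18.6 points was the largest of the 6 genes, the next being 9.42 for Kdm6a, although 160 of the 385 other informative genes rose by more.

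Kdm5c (X, 148667770 to 148713642) encodes a demethylase that removes methyl groups from lysine 4 of histone H3, a mark of active promoters. Its JF1 reads were 631 of 2072 (30.5%) and 500 of 1659 (30.1%) in WT, and 819 of 1962 (41.7%) and 894 of 2418 (37.0%) in MD1. The WT libraries nearly coincided, and the MD1 libraries were higher but differed from each other, with means of 30.3% ± 0.223 and 39.4% ± 3.37 (SD, n = 2).

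Kdm6a (X, 17739793 to 17856484), whose promoter is printed above, encodes the demethylase that takes methyl groups off lysine 27 of histone H3, a mark of Polycomb silencing. It had 104 JF1 reads of 318 (32.7%) and 86 of 285 (30.2%) in WT, and 106 of 253 (41.9%) and 225 of 565 (39.8%) in MD1. The library shares were apart by genotype, at 31.4% ± 1.79 and 40.9% ± 1.47 (SD, n = 2), on far fewer reads than Ddx3x. The Wilson 95% intervals, which cover counting error only, reached 38.0% and 35.7% in WT and began at 36.0% and 35.9% in MD1. The interval of the higher WT library thus overlapped those of the MD1 libraries.

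Tmsb4x (X, 163645026 to 163647150) encodes thymosin beta 4, a small peptide that holds actin monomers. It had 762 JF1 reads of 5279 and 858 of 5943 in WT, both 14.4%, and 1108 of 4472 (24.8%) and 1579 of 6955 (22.7%) in MD1. The WT libraries agreed closely and both MD1 libraries were higher, at 14.4% ± 0.00184 and 23.7% ± 1.47 (SD, n = 2).

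Tmem29 (X, 146832316 to 146893693) is named as a transmembrane protein gene. It had 61 JF1 reads of 383 (15.9%) and 62 of 386 (16.1%) in WT, and 105 of 476 (22.1%) and 145 of 627 (23.1%) in MD1. The library shares did not overlap, and the rise of 6.60 points, from 16.0% ± 0.0957 to 22.6% ± 0.755 (SD, n = 2), was the smallest of the 6. The Wilson 95% intervals, which cover counting error only, reached 19.93% and 20.06% in WT and began at 18.57% and 19.995% in MD1. These intervals thus overlapped between the genotypes.

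Pbdc1 (X, 102275095 to 102312429) had the lowest share and the fewest reads. Its JF1 reads were 17 of 135 (12.6%, Wilson 95% interval 8.01% to 19.2%) and 21 of 166 (12.7%, 8.43% to 18.6%) in WT. In MD1 they were 46 of 196 (23.5%, 18.1% to 29.9%) and 45 of 221 (20.4%, 15.6% to 26.2%). The MD1 libraries were higher, with means of 12.6% ± 0.0410 and 21.9% ± 2.197 (SD, n = 2), but the intervals, which cover counting error only, overlapped between the genotypes.

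**Figure D1:**
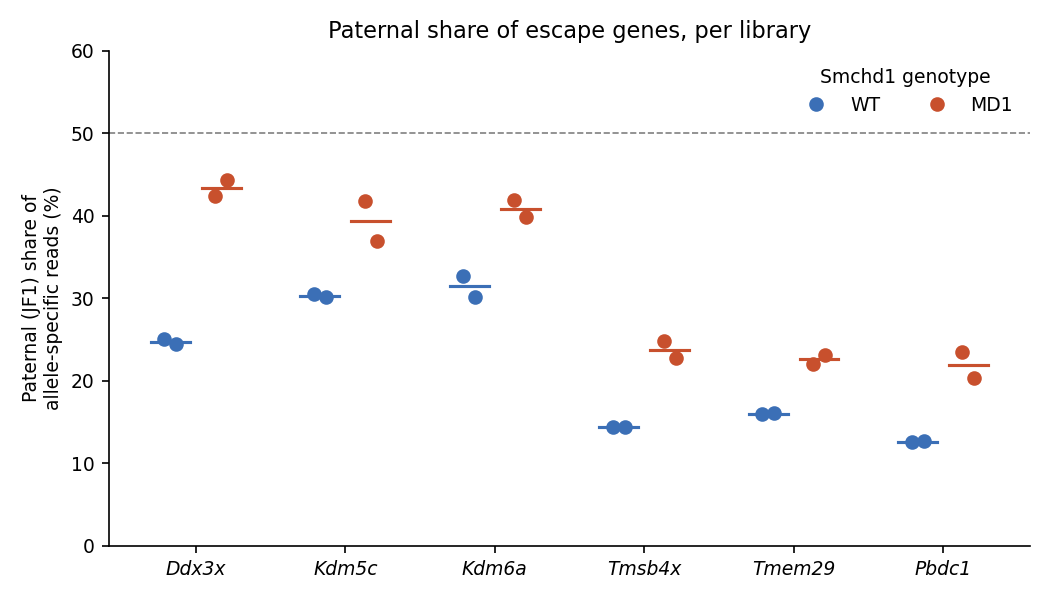
Paternal (JF1) share of allele-specific reads, in percent, for the 6 escape genes with a share. Each point is 1 library, the horizontal bar is the mean of the 2 libraries of a genotype, and the dashed line marks 50%. For each gene the MD1 points lie above the WT points, and none reaches 50%.

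In order of the MD1 mean, the genes ran Ddx3x, Kdm6a, Kdm5c, Tmsb4x, Tmem29, Pbdc1. The libraries of Kdm6a and Kdm5c overlapped, as did those of Tmsb4x, Tmem29 and Pbdc1, so these neighbours in the order did not differ beyond their spread. Ddx3x lay above Kdm6a and Kdm5c in both MD1 libraries. In MD1 replicate 1 the Wilson 95% interval was 41.1% to 43.6% for Ddx3x, 36.0% to 48.1% for Kdm6a and 39.6% to 43.9% for Kdm5c. The gap between Kdm5c and Tmsb4x, from 37.0% to 24.8%, was wider than the spread of any of the 6 genes. In WT the order was Kdm6a, Kdm5c, Ddx3x, Tmem29, Tmsb4x, Pbdc1. By its mean Ddx3x moved from the third to the first place, above both demethylase genes, though its interval overlapped theirs in MD1 replicate 1. Among the 391 informative genes the 6 had WT ranks of 2 to 8 and MD1 ranks of 33 (Ddx3x) to 162 (Pbdc1).

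With edgeR's quasi-likelihood test on JF1 and B6 counts, fitted on all informative genes, the share rose in Ddx3x, Kdm5c, Tmsb4x and Pbdc1 and did not pass in Kdm6a and Tmem29. That is 4 of 6, while 74.4% of the 391 genes rose. This contrast contains the WT shares that chose the genes, so nothing is read from the count. The estimates, calls and adjusted p-values of single genes are a description for the same reason. On the scale of the log2 odds of a JF1 read, the change was 1.22 ± 0.21 (SE) for Ddx3x (adjusted p = 1.99e-08, edgeR), 0.88 ± 0.21 for Tmsb4x, 0.57 ± 0.17 for Kdm5c and 0.95 ± 0.42 for Pbdc1. Kdm6a had 0.58 ± 0.29 and Tmem29 0.62 ± 0.30 (SE), sizes like that of Kdm5c with wider errors (adjusted p = 0.0655 and 0.0536, edgeR). The calls of Ddx3x, Kdm5c and Tmsb4x held with any 1 library left out, while that of Pbdc1 was lost each time (adjusted p = 0.0743 to 0.2002, edgeR) and Tmem29 passed without MD1 replicate 1 (0.0485).

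**Figure D2:**
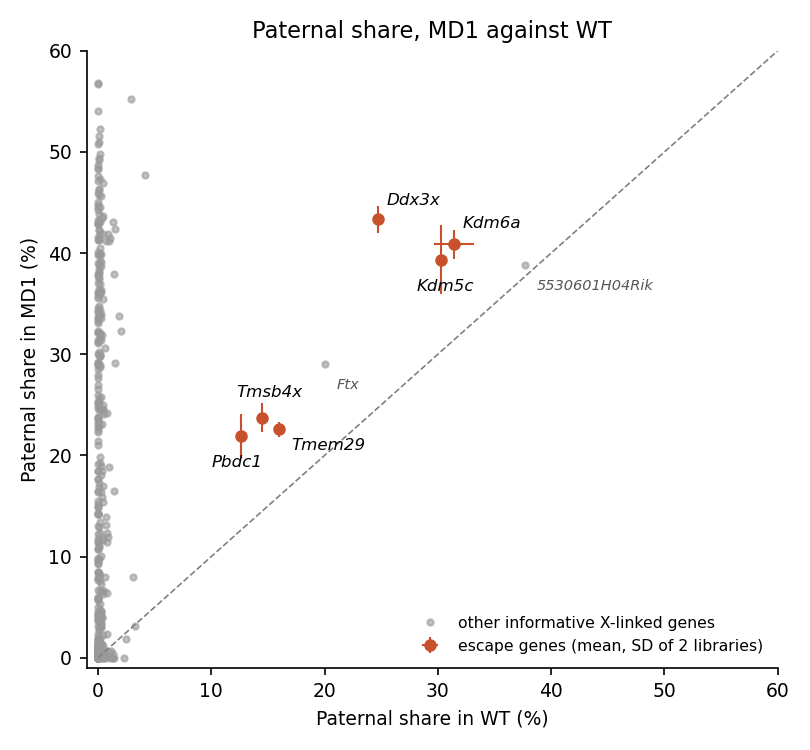
Mean paternal share in MD1 against that in WT, in percent, for 391 informative X-linked genes. Orange points are the 6 escape genes with the SD of 2 libraries, grey points are the other genes, and the dashed line marks equal shares. Most other genes lie along the left edge with WT shares near 0 and MD1 shares from 0% to 56.8%, and the 6 genes lie to the right, above the line.

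The paternal allele of the 6 genes remained below the maternal one in MD1. This comparison uses the MD1 libraries alone for its values. The genes were picked on WT shares, but with earlier results of these data known. In edgeR JF1 reads were fewer than B6 reads in 6 of 6 genes, as in 92.6% of the informative genes. The log2 ratio of JF1 over B6 was -0.39 ± 0.15 for Ddx3x (adjusted p = 0.0100, edgeR), -0.54 ± 0.20 for Kdm6a (0.00775) and -0.63 ± 0.12 (SE) for Kdm5c (2.44e-07). It was -1.69 ± 0.15 for Tmsb4x, -1.77 ± 0.20 for Tmem29 and -1.84 ± 0.25 (SE) for Pbdc1, with adjusted p of at most 3.47e-13 in edgeR. Without MD1 replicate 2 the call for Kdm6a was lost (adjusted p = 0.114, edgeR). A loss of JF1 reads in mapping to a B6-based reference was not tested.

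The output of each allele was then followed on its own, as reads of that allele per 1000000 B6 reads of X-linked genes in the same library. Paternal output of each of the 6 genes was higher in both MD1 libraries than in both WT libraries, as for 77.5% of informative genes. Maternal output overlapped between the genotypes in Ddx3x, Kdm5c, Kdm6a and Tmsb4x, and was higher in both MD1 libraries for Pbdc1 and Tmem29, as for 31.5% of informative genes. These outputs share their WT reads with the choice of the genes.

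Paternal output of Ddx3x was 2192 and 2727 in WT and 5429 and 7805 in MD1, and its maternal output was 6570 and 8453 in WT and 7386 and 9822 in MD1. The paternal libraries were apart by genotype and the maternal ones overlapped. For Kdm5c paternal output was 1202 and 984 in WT and 1732 and 1593 in MD1, and maternal output was 2744 and 2280 in WT and 2418 and 2716 in MD1. The maternal allele of this demethylase gene gave almost the same mean in both genotypes. Paternal Tmsb4x output was 1451 and 1688 in WT and 2344 and 2814 in MD1, and the maternal output of 8602 and 10003 in WT and 7115 and 9581 in MD1 overlapped.

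For Kdm6a the paternal output was 198 and 169 in WT and 224 and 401 in MD1, while maternal output was 408 and 391 in WT and 311 and 606 in MD1. The 2 MD1 libraries of Kdm6a differed in both alleles. Tmem29 had paternal outputs of 116 and 122 in WT and 222 and 258 in MD1, and maternal ones of 613 and 637 in WT and 785 and 859 in MD1. Pbdc1 had paternal outputs of 32.4 and 41.3 in WT and 97.3 and 80.2 in MD1, and maternal ones of 225 and 285 in WT and 317 and 314 in MD1.

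In edgeR paternal output rose in Ddx3x, Pbdc1 and Tmem29 and did not pass in Kdm5c, Kdm6a and Tmsb4x, or 3 of 6 against 71.1% of the informative genes. As with the share, this contrast contains the WT reads that chose the genes, so nothing is read from the count. Its estimates, calls and adjusted p-values are likewise a description. The log2 change was 1.43 ± 0.42 (SE) for Ddx3x (adjusted p = 0.00103, edgeR), 1.27 ± 0.53 for Pbdc1 (0.0232) and 1.01 ± 0.44 for Tmem29 (0.0324). It was 0.77 ± 0.44 for Kdm6a, 0.72 ± 0.43 for Tmsb4x and 0.61 ± 0.43 (SE) for Kdm5c. Only Ddx3x passed with the replicate block, where Pbdc1 had an adjusted p of 0.181 and Tmem29 0.0712 in edgeR. The same held with all allele-specific reads as library size (adjusted p = 0.213 and 0.350, edgeR). On that scale the log2 changes were smaller, at 0.93 for Ddx3x, 0.76 for Pbdc1 and 0.51 for Tmem29. They were 0.27 for Kdm6a, 0.21 for Tmsb4x and 0.10 for Kdm5c. With TMM scaling the 6 ran from 0.44 (Kdm5c) to 1.26 (Ddx3x). Without MD1 replicate 2, 0 of the 6 passed, with Ddx3x at an adjusted p of 0.0947 in edgeR. Pbdc1 was also lost without WT replicate 1 (0.1003) or MD1 replicate 1 (0.264), while Kdm5c passed without WT replicate 1 (0.0498) and Tmsb4x without WT replicate 2 (0.0208).

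Maternal output changed in 0 of the 6 genes in edgeR, and in 1.53% of the informative genes. None of the 6 had an unadjusted p under 0.05, and DESeq2 also called 0 of them. The log2 change was 0.20 ± 0.25 for Ddx3x, 0.031 ± 0.21 for Kdm5c, 0.2003 ± 0.38 for Kdm6a, 0.31 ± 0.30 for Pbdc1, 0.39 ± 0.22 for Tmem29 and -0.16 ± 0.23 (SE) for Tmsb4x. The scale matters here, since the median of all 391 genes was 0.15 with B6 reads as the library size and -0.016 with TMM scaling. With TMM, Ddx3x had 0.030 and Kdm6a 0.011, close to 0, and the sign of Kdm5c was negative, at -0.14.

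**Figure D3:**
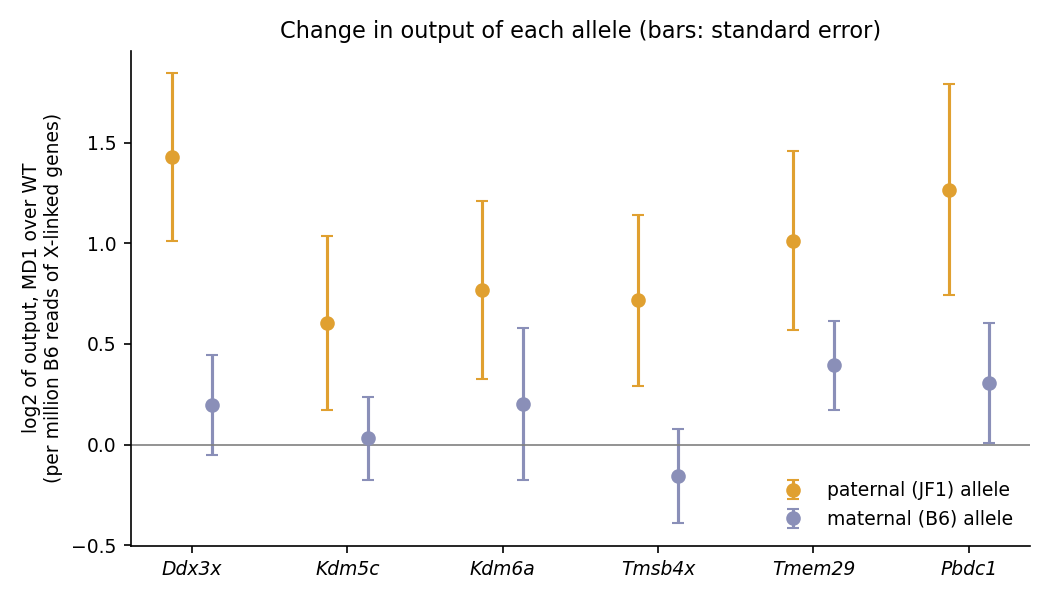
Log2 change of allele output, MD1 over WT, for the paternal and the maternal allele of the 6 genes, in reads scaled to the B6 reads of X-linked genes. Points are edgeR estimates from 2 libraries a genotype and bars are standard errors. The paternal estimates lie between 0.61 and 1.43, and the maternal ones between -0.16 and 0.39.

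Total RNA, as FPKM per genotype, is the authors' mean and has no spread, so it was compared without a test. It was higher in MD1 for 5 of the 7 genes, and the median log2 ratio of (FPKM + 1) was 0.24. Among 398 X-linked genes averaging at least 1 FPKM this median was 0.22 and 67.6% were above 0, and among 11001 autosomal genes it was 0.0012. Pbdc1 had 22.8 FPKM in WT and 30.4 in MD1, Eif2s3x 29.4 and 38.5, Ddx3x 162.7 and 206.0, Tmem29 11.1 and 13.4, and Kdm6a 7.60 and 8.56. Kdm5c was level, at 16.3 in both genotypes. Tmsb4x was the most abundant of the 7 and was lower in MD1, at 2743.6 and 2302 FPKM.

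FPKM times the pooled paternal share gives an estimate of what each allele adds to the total. For Ddx3x the paternal allele went from 40.1 to 89.7 FPKM and the maternal one from 122.5 to 116.3, beside a total of 162.7 and 206.0. For Kdm5c the paternal estimate went from 4.96 to 6.39 FPKM and the maternal from 11.4 to 9.94, differences of 1.43 and -1.45. Kdm6a had paternal estimates of 2.39 and 3.46 FPKM and maternal ones of 5.20 and 5.10. The direction of the maternal allele in these 3 genes depended on the scale. MD1 over WT was 0.949 for Ddx3x, 0.873 for Kdm5c and 0.979 for Kdm6a in maternal FPKM, and 1.15, 1.02 and 1.15 in maternal output per B6 reads.

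Among the genes of the lower set, the paternal estimate of Tmsb4x went from 396.1 to 541.3 FPKM while the maternal one went from 2347.5 to 1760.7, the largest maternal decrease of the 6 on this scale. In Pbdc1 and Tmem29 the estimates of both alleles were higher in MD1. Pbdc1 had paternal estimates of 2.87 and 6.64 and maternal ones of 19.9 and 23.8, and Tmem29 had paternal estimates of 1.78 and 3.03 and maternal ones of 9.36 and 10.3. As a percentage of maternal output, paternal output was 32.7% in WT and 77.2% in MD1 for Ddx3x, 43.5% and 64.2% for Kdm5c, and 46.0% and 68.0% for Kdm6a. It was 16.9% and 30.7% for Tmsb4x, 19.04% and 29.3% for Tmem29, and 14.4% and 27.9% for Pbdc1.

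**Figure D4:**
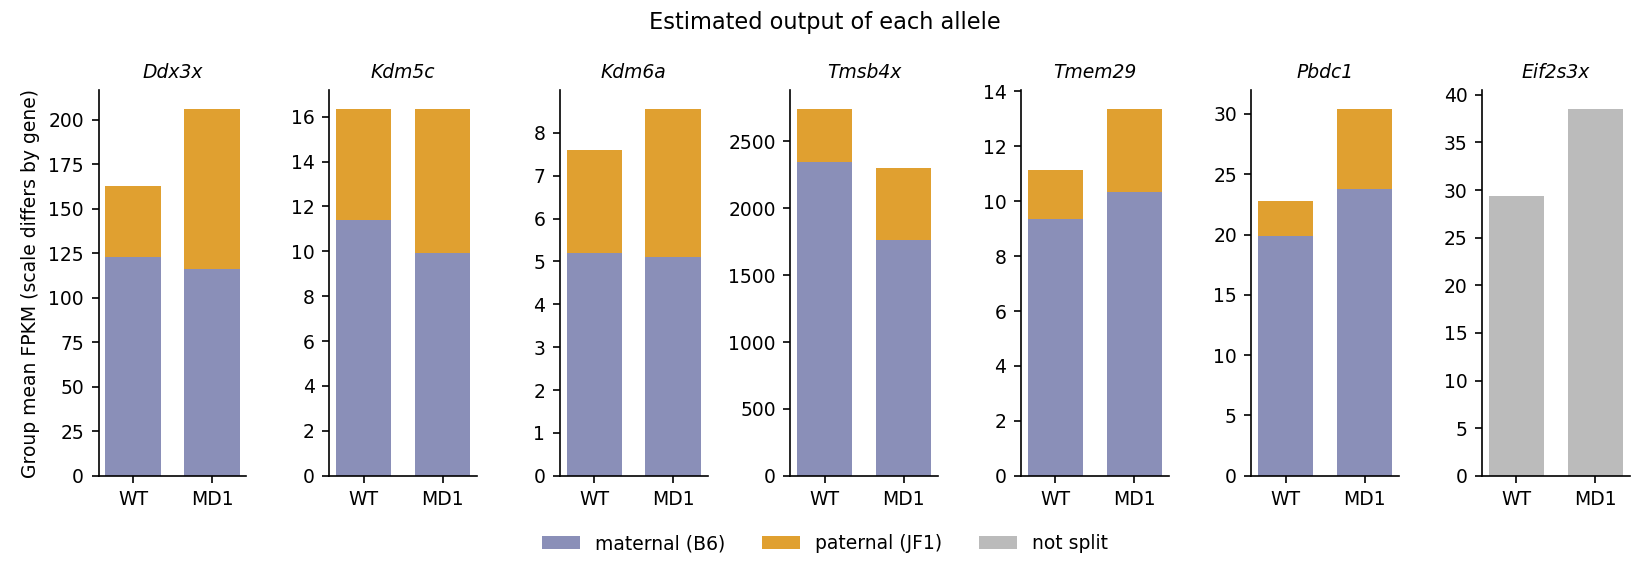
Group mean FPKM of the 7 genes in WT and MD1, split by the pooled paternal share into maternal (B6) and paternal (JF1) parts, with a separate scale for each gene and no replicate error. The paternal part is larger in MD1 in each of the 6 genes that could be split, and Eif2s3x, at 29.4 and 38.5, could not be.

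Eif2s3x (X, 91434048 to 91457990) encodes the gamma subunit of eIF2, the factor that brings the initiator tRNA to the ribosome. Its total could not be assigned to alleles. Its FPKM is uncertain too, since 1350 bases of its transcript matched a processed pseudogene, Gm2223, at 100% identity in GENCODE vM21. Pbdc1 matched Gm19807 over 669 bases at 95.7% and Ddx3x matched Gm44429 over 186 bases at 99.5%, while Kdm5c, Kdm6a, Tmsb4x and Tmem29 had 0 matches of 100 bases or more at 95% identity in another gene.

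The partners and relatives of these genes were followed by FPKM alone. All 8 measured genes of eIF2 and its exchange factor, Eif2s3x included, had 16.6 to 93.1 FPKM, and 7 of them were higher in MD1 (median log2 ratio 0.20). Eif2s1, the alpha subunit, had 61.8 and 76.0 FPKM and Eif2s2, the beta subunit, 86.3 and 93.1. All 10 measured genes of the methyltransferase complex that contains Kdm6a were higher in MD1, with a median of 0.18, from Kmt2c at 2.63 and 2.67 to Wdr5 at 21.9 and 31.6. Over all 11399 genes past that minimum, 50.8% were above 0. Of the 5 demethylases of the Kdm5 and Kdm6 families, Kdm6a was higher, Kdm5c was level and 3 were lower, among them Kdm6b at 13.1 and 9.10 FPKM. Of the thymosins that passed the same minimum, 3 of 3 were lower, with Tmsb10 at 1463.1 and 1399.3. The related helicases Ddx5 (189.1 and 199.97) and Ddx17 (87.1 and 92.7) were higher and Eif4a2 (70.9 and 53.2) lower. The Y partners were not analysed here.

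Nearby genes on the paternal X had WT shares close to 0 almost without exception, like most other informative genes. For each of the 6 genes the nearest informative gene outside the 6 was taken on each side. Most genes with a high WT share were thus left out beforehand. Distances were between the lower coordinates of the genes, whatever their strand. This gave 12 neighbours, and 11 of them had a WT share under 5%. Over the 385 informative genes outside the 6, the WT share had a median of 0.0453% and an upper quartile of 0.222%. In 10 of the 12 the genotypes did not overlap and MD1 was higher, against 77.5% of informative genes.

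Around Ddx3x the shares of both neighbours rose in MD1. Usp9x, a deubiquitinase gene 209.5 kb away, had 0.0707% and 0.0467% in WT, and its MD1 libraries 38.8% and 37.2%. Cask, on the other side at 236.1 kb, was at 0.266% and 0.189% in WT, against 17.8% and 20.03% in MD1. Both rose in edgeR (adjusted p = 3.36e-106 and 1.82e-37). In MD1 the mean share of Usp9x was 38.0% ± 1.15 beside 43.3% ± 1.35 for Ddx3x (SD, n = 2), while in WT the means were 0.0587% and 24.7%.

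Around Kdm5c the neighbours were mixed. Kantr, a noncoding gene 61.6 kb away, went from 0.383% ± 0.542 to 18.5% ± 5.31 (SD, n = 2; adjusted p = 1.85e-14, edgeR). Iqsec2, at 89.0 kb on the other side, had 0% in both WT libraries and 0% and 1.63% in MD1, and did not pass (adjusted p = 0.309, edgeR). Kdm6a had distant neighbours, Fundc1 at 606.1 kb and Chst7 at 1896.9 kb, with means of 24.1% and 12.4% in MD1.

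Tmem29 stood among genes that stayed nearly silent. Apex2, 173.7 kb away, had means of 0.243% in WT and 3.01% in MD1, a small rise that passed (adjusted p = 0.000333, edgeR), and Lrch2, 2926.1 kb away, had 0.0572% and 0.387% and did not pass (adjusted p = 0.0812). Of 9 informative genes within 1 Mb of Tmem29, the median MD1 share was 0.960% and the highest 22.3%. The corresponding median was 41.3% for the 5 genes around Ddx3x, 24.96% for the 7 around Tmsb4x, 23.2% for the 9 around Pbdc1 and 6.65% for the 12 around Kdm5c. The share of Tmem29 in MD1, 22.6%, was thus above that of most genes around it, while that of Tmsb4x, 23.7%, lay inside the range of 0.966% to 46.2% around it. Both neighbours of Tmsb4x had 0 JF1 reads in WT. Tceanc had a mean of 24.96% ± 1.71 in MD1 and Tlr7, on 24 to 37 reads a library, 32.3% ± 11.7 (SD, n = 2).

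The exception lay beside Pbdc1. The noncoding gene 5530601H04Rik (X, 102236193 to 102265463) is on the minus strand and Pbdc1 on the plus strand, so the genes lie head to head, with 9632 bases between their starts. Its share was 41.6% and 33.7% in WT and 42.5% and 35.1% in MD1, so the genotypes overlapped, and it was above Pbdc1 in all 4 libraries. Magee1, on the other side of Pbdc1 at 40.6 kb, went from 0.756% ± 0.122 to 24.2% ± 3.54 (SD, n = 2), beside 21.9% for Pbdc1.

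**Figure D5:**
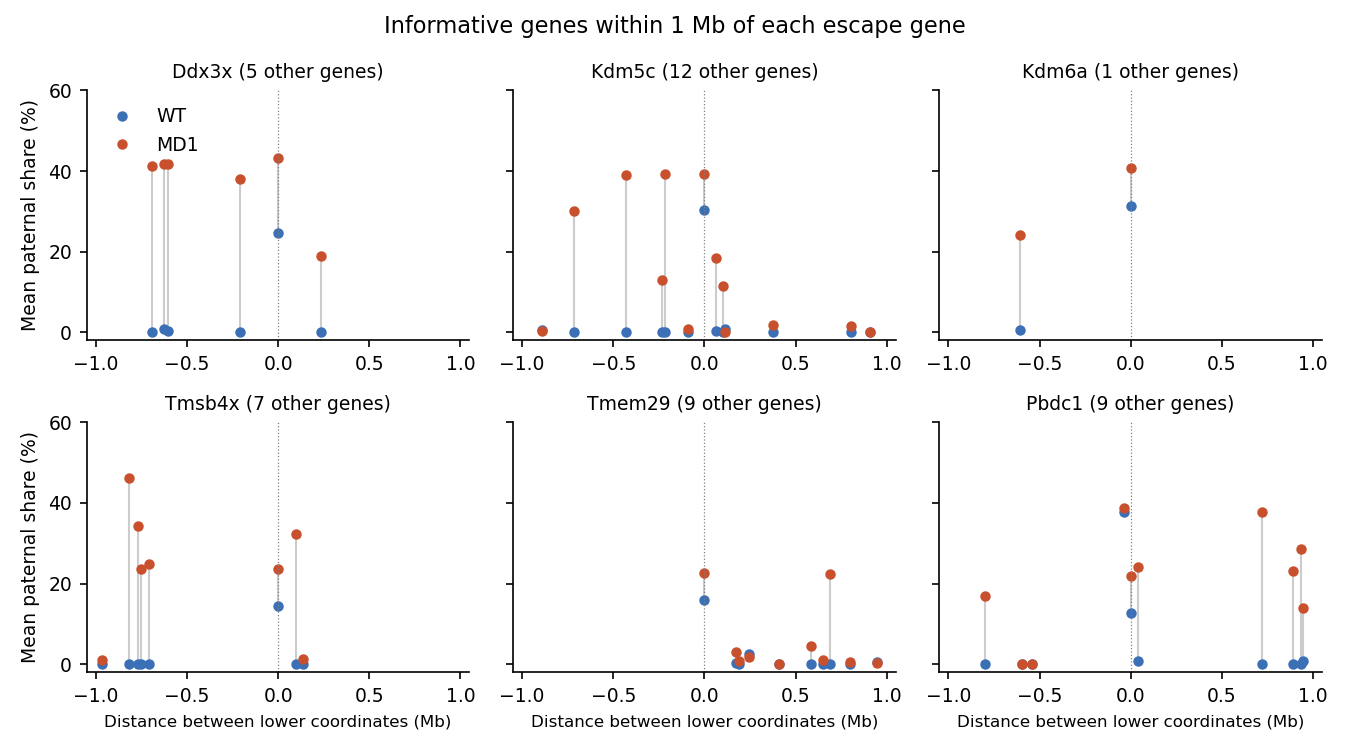
Mean paternal share, in percent, of informative genes within 1 Mb of each of the 6 escape genes, against the distance between the lower coordinates of the genes in Mb. Blue points are WT, orange points are MD1, a grey line joins the means of 1 gene, and the dotted line marks the escape gene. Around Ddx3x the 5 other genes go from at most 0.887% to between 18.9% and 41.9%, while around Tmem29 most stay near 0.

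The genes most like the 6 in their share over the 4 libraries were sought among the other 385. The mean profile of the 6 was 21.9% and 21.3% in WT and 32.7% and 31.2% in MD1. The closest was Ftx, a noncoding gene next to Xist, with 19.4% and 20.6% in WT and 29.4% and 28.6% in MD1, at a root mean square difference of 2.48 points over the 4 libraries. The next was 5530601H04Rik at 12.8 points, followed by Zfp275, Pdzd11 and Vbp1 at 13.9 to 14.4 points. These last 3 had means of 1.496% to 2.05% in WT and resembled the 6 in MD1 alone, at 29.1% to 33.8%.

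With respect to the choice of genes, Pbdc1 at 12.6% was the lowest in WT. The highest WT shares outside the 6 were 37.7% for 5530601H04Rik and 19.99% for Ftx, then 4.17% for Rpl10 on 12 reads a library, 3.24% for Tnmd and 3.11% for Mid1. Of 16 symbols on a list of known escape genes, 13 were informative and 9 of these were not among the 7 genes. Their shares rose in 6 and did not pass in 3 (5530601H04Rik, Ftx and Firre) in edgeR, beside 74.4% rising over all informative genes. Those that rose had low mean WT shares, from 0.0389% (Bgn) to 3.11% (Mid1). 5530601H04Rik and Ftx, with the highest WT shares of the 9, did not pass, so the count mostly covers genes nearly silent in WT. Ftx held only 62 to 85 allele-specific reads a library. Its change in log2 odds was 0.71 ± 0.60, against 0.050 ± 0.35 (SE) for 5530601H04Rik. The median rise of the 9 was 8.997 points, the value of Ftx, and that of the 385 informative genes outside the 6 was 11.6. Maternal output changed in 0 of the 9 in edgeR, and in 1.53% of all informative genes. Utp14a, a ribosome biogenesis gene on this list, went from 1.52% ± 0.818 to 42.4% ± 0.548 (SD, n = 2), a level like that of Ddx3x in MD1 from a WT share near 0.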

How the data were processed

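The authors deposited 1 table of 22691 genes. Its X-linked rows hold, per library, deposited counts of reads assignable to either allele and a deposited fraction of JF1 reads. Share times reads was whole within 0.001 for 100% of values, which gave JF1 and B6 counts. FPKM was deposited as 1 mean per genotype made by the authors. The submitters' processing notes name mm9, Cufflinks 2.2.1 and Cuffdiff, while aligner, variant source and strand setting were not given in the sources used here. Coordinates are mm9, with starts raised by 1 to count from 1. Tests were edgeR 4.0.16 quasi-likelihood F-tests (R 4.3.3), two-sided, on 391 informative genes, Benjamini-Hochberg adjusted at an FDR of 0.05. Shares and allele balance were fitted with terms for library, allele and allele by genotype, and allele outputs on the counts of 1 allele, with the library's B6 reads without Xist as library size. The tests were tested on simulated data. Their spread was set beforehand and not estimated from these libraries, so nothing is read from that trial here. DESeq2 1.42.0, other scalings, read minimums of 0 and 100, a replicate term and leaving out each library were alternatives. Promoter sequences came from RefSeq (GRCm38.p6), and copies were sought with blastn 2.17.0. Reads of the replicates differed beyond sampling noise (chi-square per degree of freedom 98.1 in WT and 90.6 in MD1). The 7 genes and the lists were chosen with earlier results of these data known. Named genes were the 7, the nearest informative gene on either side, the 5 most alike in share, and examples of the fixed lists. Rpl10 and Tnmd, given for the WT bound, and the pseudogenes were named after their values were seen.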

Additional observations from a re-analysis of the deposited data

How the results depend on the processing

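Depth limits these results most at Pbdc1 and Kdm6a, where libraries held 135 to 565 reads with an assigned allele. The number of genes called for share, allele balance and paternal output stayed within 1.5 times the main count under every alternative run. For maternal output 6 genes were called, against 10 with DESeq2, 64 with the replicate block, and 9 to 23 with 1 library left out. With 1 library left out, paternal output was called in 0 to 4 of the 6 escape genes. It was called in 1 (Ddx3x) with all allele-specific reads as library size, and in 1 (Ddx3x) with the replicate block. The replicate numbers share no stated source. Each library's deviation from its genotype mean was taken per gene and compared between the same-numbered libraries of WT and MD1. Across 391 genes these deviations correlated at 0.398 in maternal output and 0.0584 in share. Under the replicate block the share of Kdm5c and Pbdc1 no longer passed (adjusted p = 0.111 and 0.0646, edgeR), Kdm6a and Tmem29 passed (0.0389 and 0.0375), and the allele balance of Ddx3x was lost (0.0746). With DESeq2 the share of Pbdc1 (adjusted p = 0.248) and the balance of Kdm6a (0.152) were lost, and the paternal output of Tmsb4x passed (0.0451). Uncalled maternal changes reversed sign with all allele-specific reads as library size, to -0.31 for Ddx3x, -0.47 for Kdm5c, -0.2963 for Kdm6a, -0.20 for Pbdc1 and -0.11 for Tmem29. Kdm5c reversed to -0.14 with TMM and -0.12 with DESeq2 size factors. With 1 library left out maternal values ran from -0.024 to 0.39 for Ddx3x, -0.096 to 0.17 for Kdm5c, -0.36 to 0.601 for Kdm6a and -0.39 to 0.043 for Tmsb4x. With a pseudocount of 0.1 the median FPKM ratio of the 7 genes was 0.26, and without a filter on FPKM that of X-linked genes was 0. The cause of these changes was not tested.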
